A study of Mus musculus with 21 samples.

Results

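The genes described here are 8 components of the presynaptic vesicle release machinery of neurons: Syp, Syt1, Syn1, Syn2, Vamp2, Snap25, Stx1a and Cplx1. They were chosen by gene symbol, and each matched 1 row, so that 8 of the 16318 genes of the deposited count table are described, all of which passed the filter on low counts. The counts came from whole-brain RNA of 21 SAMP8 mice, an inbred senescence-accelerated strain, with 1 library per mouse. HsTX1[R14A], a peptide that blocks the voltage-gated potassium channel Kv1.3, was injected under the skin every other day at 1 mg/kg for 8 weeks in 9 mice (3 females and 6 males). The vehicle, phosphate-buffered saline (PBS), was injected on the same schedule in 12 mice (6 females and 6 males). All mice were 4 months old when dosing began and 6 months old at the end, and no mouse of a control strain entered the comparison, so both groups carry the SAMP8 background. Mice were perfused before the brain was removed, and the whole brain mixes all cell types of the organ.

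A synaptic vesicle releases its transmitter when a protein on the vesicle, the v-SNARE, zippers with proteins on the plasma membrane, the t-SNAREs, and pulls both membranes together. Calcium triggers the last step through a sensor on the vesicle, a small cytosolic protein clamps or assists the partly zippered complex, and phosphoproteins on the vesicle surface hold the reserve pool in place. The transcripts of these proteins are abundant in neurons, which makes them common markers of presynaptic content in brain tissue. In bulk RNA, fewer cells of a type and less RNA per cell cannot be told apart.

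Library totals ranged from 14917174 to 47613792 counts. Relative to the library size scaled as described below, the 8 genes together took between 0.466% and 0.975%, with a median of 0.684%. Counts of a member in a single mouse ran from 643 for Syn1 to 113591 for Snap25, so the spread between mice and not read sampling set the precision. Levels are CPM, counts relative to the library size, with library sizes scaled by the trimmed mean of M values (TMM), unless stated otherwise. Mice are named by their numbers in the labels. Column headers of the table carry library names in 2 forms, SAMP8 (10 PBS and 5 HsTX1[R14A] mice) and SAMP (2 PBS and 4 HsTX1[R14A] mice), and what the forms stand for was not given in the sources used here. Libraries also differed in how counts depended on transcript length. This dependence is given below as the length slope, the slope over genes of a library's centered log2 CPM on the log2 length of the longest annotated transcript. It was -0.08 ± 0.16 in PBS mice (SD, n = 12) and 0.10 ± 0.12 in HsTX1[R14A] mice (SD, n = 9), and was lowest in PBS female 103 at -0.38 and PBS male 90 at -0.34.

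To compare levels between the genes, CPM was divided by the length in kb of each gene's longest transcript (GENCODE annotation, GRCm38). On this scale Snap25 stood highest, at 507 ± 104 CPM per kb (SD, n = 21), and was above the next gene in 21 of 21 mice. Vamp2 at 341 ± 59.3 and Syp at 340.5 ± 59.3 CPM per kb could not be ordered, since Vamp2 was the higher in 12 of 21 mice. Cplx1 (263 ± 50.0) and Syt1 (256 ± 49.4) were also close, with Cplx1 the higher in 14 of 21 mice. Syn1 (95.8 ± 53.5) and Syn2 (92.4 ± 15.8) followed, Syn1 being the higher in 9 of 21 mice although its mean was larger. Stx1a was the lowest member at 60.6 ± 13.1 CPM per kb, and Syn2 exceeded it in every mouse. The longest Snap25 transcript, of 4880 bases, is not annotated as protein-coding. The longest coding one has 2116 bases, on which the Snap25 level became 1169 CPM per kb. With the union of all exons as the length, Snap25 remained first at 364 CPM per kb, Cplx1 moved to the second place at 263, and Syn2 (50.7) and Stx1a (49.3) could no longer be ordered, Syn2 being above Stx1a in 9 of 21 mice.

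The question of the treatment comparison was whether the 8 presynaptic transcripts differed between brains of HsTX1[R14A]-treated and PBS-treated mice. With sex in the model, 5 of the 8 genes passed an FDR of 0.05, all of them higher in HsTX1[R14A] mice: Syp, Syt1, Syn1, Syn2 and Vamp2. Of all genes tested, 31.6% passed in either direction and 15.5% were higher. Cplx1, Stx1a and Snap25 did not pass. The median log2 fold change was 0.29 over the 8 genes and -0.01 over all 16303 tested genes. The CPM ranges of the treatment groups overlapped for each of the 8 genes, and ranges without overlap were found in 0.0184% of all tested genes. The same number of members was called by limma/voom (31.9% of all genes), DESeq2 (37.7%), with relative log expression (RLE) scaling (32.3%), without a filter (31.5%) and with at least 10 counts asked of every mouse (36.9%). Without the sex term 2 members were called (18.3% of all genes), with 1 surrogate variable 2 (13.9%), and without both PBS mice of lowest length slope, an alternative added after seeing the data, 2 (17.7%). The plot of levels by mouse gives every value.

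**Figure D1:**
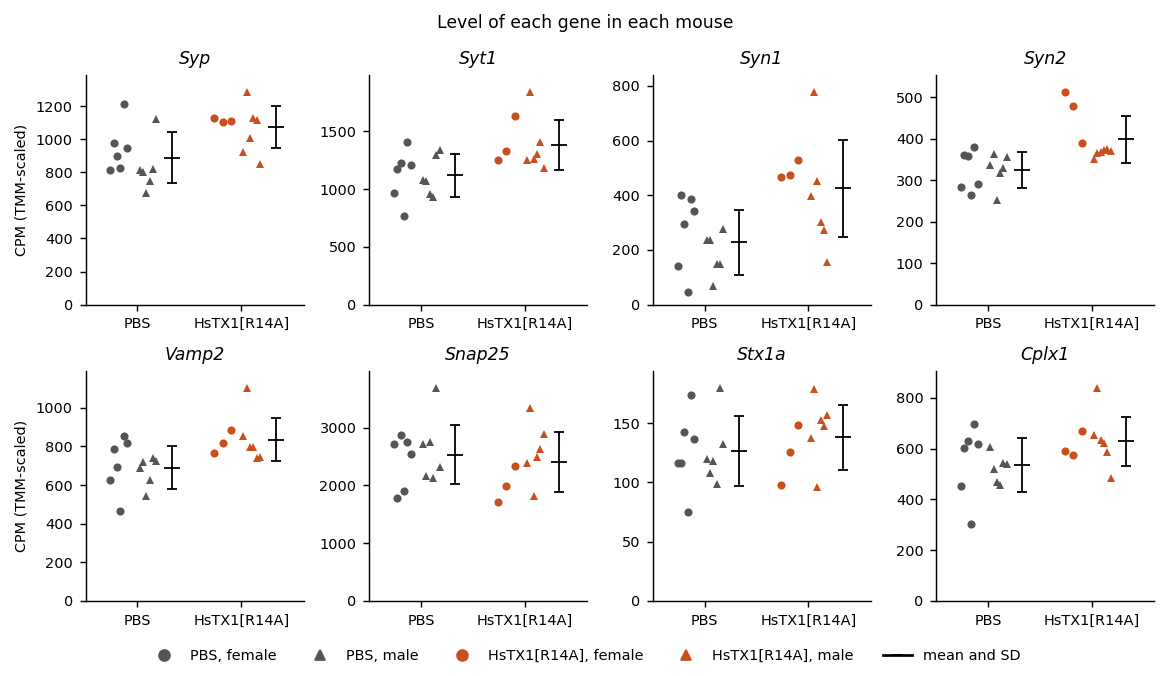
Each panel plots the CPM of 1 gene (vertical axis from 0) in the 12 PBS mice (grey) and the 9 HsTX1[R14A] mice (orange), with females as circles, males as triangles, and the mean and SD as a bar beside each group. Syn1 has the widest spread, from 45.6 to 779.6 CPM, and in no panel are the groups fully apart.

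Syp encodes synaptophysin, an integral protein of the vesicle membrane. Its CPM ran from 676 through a median of 824 to 1213 in PBS mice and from 852 through 1112 to 1289 in HsTX1[R14A] mice. All 9 treated mice were above the PBS median, but only male 81 was above the highest PBS mouse, female 104. The means were 889 ± 154 (SD, n = 12) and 1073 ± 128 (SD, n = 9), a log2 fold change of 0.30 (SE 0.095, edgeR adjusted p = 0.0274). The annotation places Syp on chromosome X from 7638471 to 7653256 on the plus strand (GRCm38), where 875 of its exonic bases are shared with Gm14703, an antisense gene. Whether the counting used strand is not stated, so reads there could come from either gene.

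Syt1 encodes synaptotagmin-1, the calcium sensor of fast release. PBS mice ran from 765 through a median of 1128 to 1406 CPM, and HsTX1[R14A] mice from 1182 through 1305 to 1846. PBS female 103 was the lowest mouse, 7 PBS mice lay below the lowest treated mouse, and 3 treated mice lay above the highest PBS mouse. Mean CPM was 1119.5 ± 189.7 and 1386 ± 216, with a log2 fold change of 0.31 (SE 0.11, edgeR adjusted p = 0.0349). Syt1 lies on chromosome 10 from 108497650 to 109010982 on the minus strand.

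Syn1 encodes synapsin I, a phosphoprotein that tethers vesicles in the reserve pool, and it moved more than any other member. PBS mice ran from 45.6 through a median of 237 to 401 CPM, and HsTX1[R14A] mice from 157 through 452 to 779.6. The lowest values were those of PBS female 103 (45.6) and PBS male 90 (69.7), and the highest was that of HsTX1[R14A] male 81, 17.1-fold above the lowest. Of the treated mice, 8 of 9 were above the PBS median and 5 were above every PBS mouse, among them the 3 females at 467, 476 and 530 CPM. The means were 228 ± 118 and 426 ± 178, and the log2 fold change was 0.99 (SE 0.32, 95% confidence interval 0.33 to 1.66, edgeR adjusted p = 0.0282), a 1.99-fold difference. Syn1 lies on chromosome X from 20860511 to 20921004 on the minus strand. Its residual SD after treatment and sex were fitted was 0.86 log2 units. This was above that of 99.3% of the 10462 more abundant genes (mean log2 CPM 3 or higher), whose median was 0.22. The residual SDs of the other 7 members ran from 0.19 for Syn2 to 0.33 for Stx1a.

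Syn2 encodes synapsin II, the paralogue of synapsin I. Its CPM ran from 253 through a median of 333 to 380.0 in PBS mice and from 352 through 372 to 513 in HsTX1[R14A] mice. All 9 treated mice were above the PBS median, and the only 3 above every PBS mouse were the treated females, at 390.2, 479.8 and 513 CPM. The 6 treated males lay close together, from 352 to 375 CPM. Means were 324 ± 42.8 and 398 ± 57.3, with a log2 fold change of 0.31 (SE 0.086, edgeR adjusted p = 0.0193). Syn2 lies on chromosome 6 from 115134902 to 115282006 on the plus strand and shares 90 exonic bases with Timp4, which is transcribed from the other strand inside it.

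Vamp2 encodes synaptobrevin 2, the v-SNARE of synaptic vesicles. PBS mice ran from 466 through a median of 706 to 854 CPM and HsTX1[R14A] mice from 739.6 through 797 to 1103. Of the PBS mice, 8 lay below the lowest treated mouse, and 3 treated mice, with male 81 far in front, lay above the highest PBS mouse. The means were 691 ± 111 and 834 ± 112, with a log2 fold change of 0.28 (SE 0.10, edgeR adjusted p = 0.0411). Vamp2 lies on chromosome 11 from 69088490 to 69092384 on the plus strand.

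Neither of the 2 t-SNAREs among the 8 genes was called. Snap25, which encodes SNAP-25, ran from 1787 through a median of 2633 to 3688 CPM in PBS mice and from 1709 through 2385 to 3345 in HsTX1[R14A] mice. Only 2 of 9 treated mice exceeded the PBS median, and the treated females, at 1709 to 2344 CPM, were all below it. Mean CPM was 2530.2 ± 513 against 2400.1 ± 522, a log2 fold change of -0.12 (95% confidence interval -0.38 to 0.14, edgeR adjusted p = 0.470). Stx1a, which encodes syntaxin-1A, ran from 75.1 through a median of 119 to 179.8 CPM in PBS mice and from 96.4 through 147 to 179 in HsTX1[R14A] mice. The groups overlapped almost over their whole range, with 7 of 9 treated mice above the PBS median and none above the highest PBS mouse. Its means were 126 ± 29.5 and 138 ± 27.2, a log2 fold change of 0.11 (95% confidence interval -0.18 to 0.40, edgeR adjusted p = 0.552). The interval of Stx1a contains the 0.30 measured for Syp, whereas that of Snap25 ends at 0.14. Snap25 lies on chromosome 2 from 136713453 to 136782428 and Stx1a on chromosome 5 from 135023482 to 135051100, both on the plus strand.

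Cplx1 encodes complexin-1, the cytosolic regulator that binds the assembled SNARE complex. PBS mice ran from 304 through a median of 542 to 697 CPM and HsTX1[R14A] mice from 486 through 624 to 839. In 8 of 9 treated mice the value was above the PBS median, while only male 81 was above every PBS mouse. The means were 536 ± 105 and 628 ± 95.7, and the log2 fold change of 0.23 did not pass the threshold (95% confidence interval -0.02 to 0.48, edgeR adjusted p = 0.132). Cplx1 lies on chromosome 5 from 108518554 to 108550024 on the minus strand.

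The same few mice set the extremes of most members. HsTX1[R14A] male 81 was the highest treated mouse for 7 genes, all but Syn2, and PBS female 104 was the highest PBS mouse for 5 genes. Both libraries carry the SAMP name form. PBS female 103 was the lowest PBS mouse for 5 genes, PBS male 90 for 2, and HsTX1[R14A] male 93 the lowest treated mouse for 4. With 1 mouse left out at a time, Syn2 passed in all 21 edgeR fits, with adjusted p from 0.0114 to 0.0432. Syp and Syn1 each passed in 19, and lost the call without PBS male 90 or HsTX1[R14A] male 81. Syt1 passed in 15 of the 21 fits, not without PBS mice 73, 90 and 91 or HsTX1[R14A] mice 98, 72 and 81. Vamp2 passed in 12, not without those 6 or HsTX1[R14A] mice 71, 74 and 88. Omission of male 90 left 1 member and 14% of all genes called, and omission of male 81 left 1 member and 20% of all genes.

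Between females and males, none of the 8 genes passed the threshold in edgeR (0 with an unadjusted p under 0.05), where 0.0552% of all genes did. None was called in the other sex fits either, with limma/voom (0.0613% of all genes), RLE scaling (0.0429%), the library name form (0.0491%) or the length and GC trend removed (0.111%). The log2 differences, female over male, ran from -0.21 for Snap25 to 0.45 for Syn1 (SE 0.32). The treatment difference was not shown to depend on sex for any member: the interaction was called in 0 members and in 0 of all genes by edgeR (270 at an unadjusted p under 0.05) and by limma/voom (250), and 1 member, Syn2, had an unadjusted p under 0.05 in edgeR and none in limma/voom. For Syn2 the treatment log2 fold change was 0.51 (SE 0.16) in females and 0.18 (SE 0.089) in males fitted separately, and the interaction was 0.34 (SE 0.16, edgeR unadjusted p = 0.0487, adjusted p = 1.00). In these separate fits 0 members were called in either sex, with 1 unadjusted p under 0.05 in females and 5 in males. The same fits called 0 of all genes, with 3312 at an unadjusted p under 0.05 in females and 4440 in males.

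Because libraries differed in length slope between the treatments, each gene was set against it. Over the 21 mice the log2 CPM of Syn1 followed the slope with a Pearson r of 0.973 (Spearman rho 0.962), and with 0.948 when the 2 libraries farthest from the median slope were left out. Within the PBS mice r was 0.969 (n = 12) and within the HsTX1[R14A] mice 0.949 (n = 9). For Vamp2, Cplx1, Syn2, Syt1 and Syp it was 0.836, 0.825, 0.784, 0.769 and 0.746, and between 0.616 and 0.722 without the same 2 libraries. Within the treated mice these 5 genes had r from 0.366 (Syn2) to 0.681 (Cplx1), and within the PBS mice from 0.629 (Syp) to 0.854 (Syn2). The r of Snap25 was -0.243, and -0.483 without the 2 libraries. That of Stx1a was 0.282, and -0.0997 without them, with 0.446 within the PBS mice and -0.303 within the treated mice. These values are descriptions, as both measures come from the same library. Syn1 changed by 5.74 log2 CPM per unit of slope, more than 99.7% of the 10462 genes, while the other members changed by -0.43 (Snap25) to 1.47 (Cplx1). Over these genes, 97.1% had a lower r to the slope than Syn1, and between 70.1% (Syp) and 76.1% (Vamp2) a lower r than Syp, Syt1, Syn2, Cplx1 and Vamp2, so that the r of these 5 genes was reached by many others. Libraries also differed in GC slope, the change in centered log2 CPM per 10% of GC content, fitted together with length. It was -0.09 ± 0.20 in PBS mice (SD, n = 12) and 0.13 ± 0.15 in HsTX1[R14A] mice (SD, n = 9). Over the 21 mice the GC slope had an r of 0.969 with the length slope and 0.97 with Syn1. The parts of length and GC content therefore cannot be told apart.

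**Figure D2:**
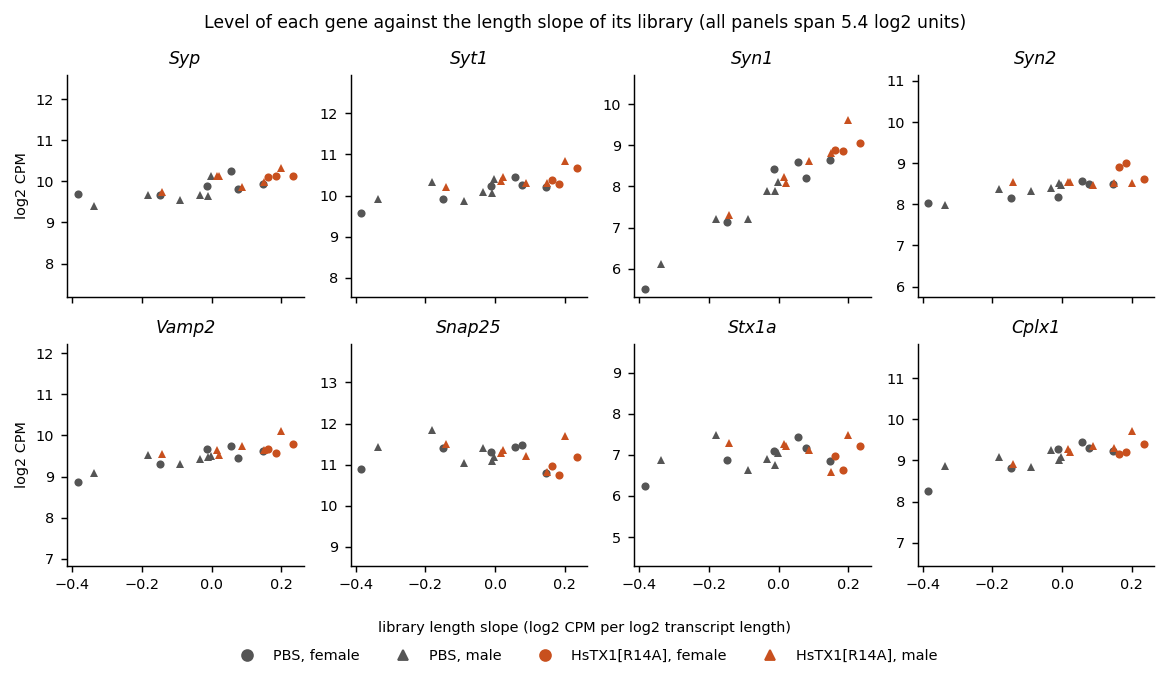
Each panel sets the log2 CPM of 1 gene (vertical axis, the same span in every panel) against the length slope of the library (horizontal axis, log2 CPM per log2 transcript length) for 21 mice, PBS in grey and HsTX1[R14A] in orange, females as circles and males as triangles. Syn1 climbs steeply along the slope (r = 0.973), Vamp2, Cplx1, Syn2, Syt1 and Syp climb gently, and Snap25 (r = -0.243) and Stx1a (r = 0.282) have the values of r nearest 0.

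With the length slope as a covariate, none of the 8 genes was called by edgeR (0 with an unadjusted p under 0.05), nor was any of all genes tested (0, with 1865 at an unadjusted p under 0.05). The Syn1 log2 fold change became -0.06 (SE 0.12), that of Cplx1 -0.09 (SE 0.090), and those of Syp and Syn2 0.13 (SE 0.095) and 0.15 (SE 0.081). When the dependence of each library on length and GC content was smoothed and subtracted instead, 4 genes remained called, among 16% of all genes: Syp at 0.42 (SE 0.11), Syn1 at 0.83 (SE 0.26), Vamp2 at 0.29 (SE 0.096) and Syn2 at 0.21 (SE 0.069). Syt1 then had an adjusted p of 0.0639, and Snap25 stood at 0.00 (SE 0.12). With the library name form as a covariate, Syp (0.21, SE 0.068) and Syn2 (0.30, SE 0.090) were called, among 12.3% of all genes. In the 15 mice of the SAMP8 form alone, 0 members and 0 of all genes were called by edgeR, although 5 members had an unadjusted p under 0.05 and Syn1 had a log2 fold change of 0.97 (SE 0.39). In the 6 mice of the SAMP form alone (2 PBS and 4 HsTX1[R14A]), edgeR called 0 members and 0 of all genes. In this fit 0 members and 532 of all genes had an unadjusted p under 0.05. There Syp was at -0.01 (SE 0.16) and Syn1 at 0.60 (SE 0.44).

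**Figure D3:**
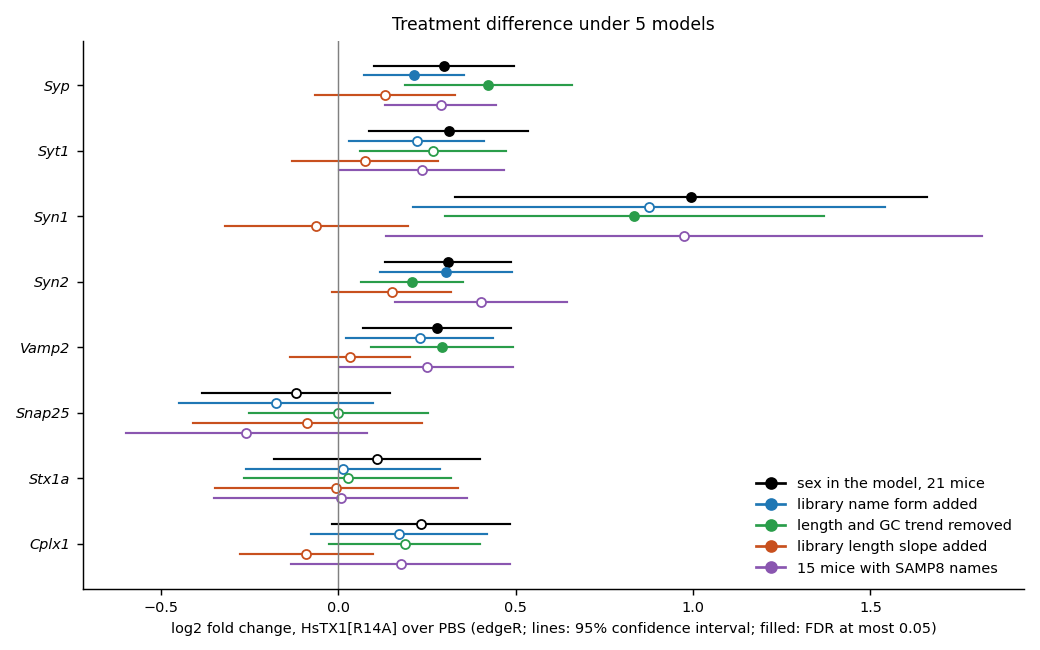
The treatment effect as log2 fold change, treated over PBS (horizontal axis), is drawn for each of the 8 genes under 5 edgeR models told apart by color, with lines for the 95% confidence interval and filled points for an FDR of at most 0.05. The intervals of Syp, Syt1, Syn1, Syn2 and Vamp2 stay above 0 with the length and GC trend removed (green), with the Syt1 point not filled, whereas with the length slope added (orange) every interval contains 0 and no point is filled.

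The transcripts of the 8 genes are of middling length. The longest transcript has 2167 bases in Stx1a, 2189 in Cplx1, 2205 in Vamp2, 2843 in Syp, 3261 in Syn1, 3854 in Syn2, 4820 in Syt1 and 4880 in Snap25, against a median of 3283.5 bases over all tested genes. They ranged from longer than 26.4% of tested genes (Stx1a) to longer than 77.0% (Snap25). When all tested genes were divided into 10 length deciles, the median log2 fold change climbed from -0.40 in decile 1, with the shortest transcripts, to 0.30 in decile 10, with the longest. Vamp2, Cplx1 and Stx1a fall in decile 3, whose median was -0.11, and all 3 genes had values above it, at 0.28, 0.23 and 0.11. The share called higher was 4.75% in that decile, and 12.4%, 16.6% and 24.9% in deciles 5, 7 and 8, where the other members fall. Syp and Syn1 fall in decile 5, whose median was -0.02, and Syn2 in decile 7, whose median was 0.05. Syt1 and Snap25 have nearly the same longest transcript and share decile 8 (median 0.12), and stood at 0.31 and -0.12. By this length Snap25 was the single member below the median of its decile. Its place there rests on a transcript of 4880 bases that is not annotated as protein-coding. The longest coding Snap25 transcript, of 2116 bases, lies within the lengths of decile 3 (1858 to 2341 bases), whose median of -0.11 is close to the Snap25 value. With coding lengths used in removing the trend, which was tried after the data had been seen and left 15.4% of all genes called, Snap25 stood at 0.22 (SE 0.14, edgeR adjusted p = 0.262) and Syp, Syn1 and Vamp2 were called.

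**Figure D4:**
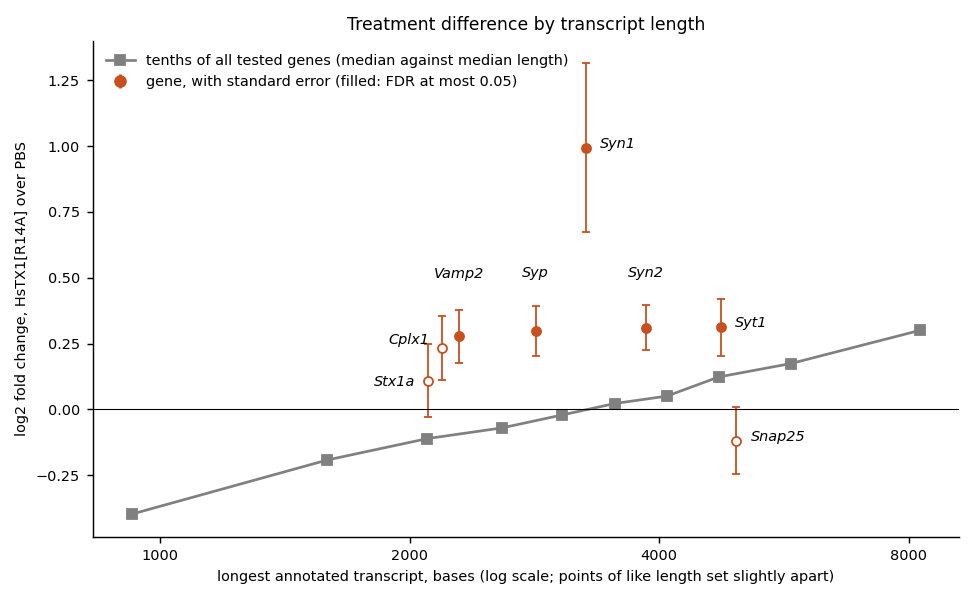
The treatment effect as log2 fold change, treated over PBS (vertical axis), is set against the length of the longest transcript (horizontal axis, log scale), with the 8 genes in orange with their standard errors and the medians of length deciles of all tested genes in grey. The medians climb from -0.40 to 0.30, and 7 of the 8 genes lie above the grey line, with Snap25 at -0.12 below it. Snap25 is drawn at the length of its longest transcript, 4880 bases, which is not annotated as protein-coding, and its longest coding transcript has 2116.

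By GC content Snap25 falls in decile 1, where the median log2 fold change of all genes was -0.21, and Syt1 and Syp in decile 3 (-0.06), Vamp2 and Syn2 in decile 7 (0.06) and Cplx1 in decile 9 (0.11). Syn1 and Stx1a have transcripts of 57.9% GC each, both in decile 10 (0.16), and Stx1a has the shorter transcript. Over the 21 mice they correlated with an r of only 0.42, and the highest mouse was 17.1-fold above the lowest for Syn1 and 2.39-fold for Stx1a. To show what the start regions of this pair look like, the bases before their transcription starts are printed from RefSeq (GRCm38.p6), up to the first annotated exon base of the gene and on the strand of the gene. RefSeq promoter windows were at hand for 6 of the 8 members and in 32851 windows in all. Both strands of the 250 bases before each start were searched for TTCAGCACC, the left part of the binding motif of the neuronal repressor REST, for TGACGTCA, the cAMP response element, and for GGGCGG, the GC box. Matches are in capitals.
Syn1, chrX:20921005-20921168, minus strand: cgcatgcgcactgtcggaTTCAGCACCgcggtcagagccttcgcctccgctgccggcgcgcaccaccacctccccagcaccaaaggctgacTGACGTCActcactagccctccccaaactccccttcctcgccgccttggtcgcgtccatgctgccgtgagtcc
Stx1a, chr5:135023232-135023481, plus strand: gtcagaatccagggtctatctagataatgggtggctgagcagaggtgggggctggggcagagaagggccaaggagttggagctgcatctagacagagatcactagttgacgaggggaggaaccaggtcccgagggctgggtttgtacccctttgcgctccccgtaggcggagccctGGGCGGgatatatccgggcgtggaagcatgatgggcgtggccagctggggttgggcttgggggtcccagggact

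The Syn1 window held 1 match to the REST motif part, which starts 232 bases before the RefSeq start, and 1 to the cAMP response element, which starts 159 bases before it. Such matches were present in 0.301% and 1.55% of all windows. The Stx1a window held neither and had 1 GC box, a motif present in 32.7% of all windows. Among the other members with a window, none had a match to the first 2 motifs, while Syp and Syn2 had 2 GC boxes each and Syt1 and Cplx1 had 1. The Syn1 window held 27 CpG, more than 91.4% of all windows, and that of Stx1a held 9. A match to these letters is not a binding site, and the counts do not bear on which factors act there.

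Among themselves, Syt1, Vamp2, Syn1 and Cplx1 were correlated over the 21 mice with r between 0.842 and 0.923, and Vamp2 and Syn1 gave the highest value. Over all 21 mice Syp and Syn2 joined them more loosely, with r from 0.531 (Syn2 and Cplx1) to 0.808 (Syp and Syt1). Syn2 did so only within the 12 PBS mice, where its r with Syt1, Vamp2, Syn1 and Cplx1 ran from 0.703 to 0.812. Within the 9 treated mice its r was -0.189 with Syt1, -0.253 with Vamp2, -0.28 with Cplx1 and 0.212 with Syn1. Snap25 and Stx1a were correlated with each other (r = 0.774, with 0.753 within the 12 PBS mice and 0.951 within the 9 treated mice). Snap25 had an r of -0.302 with Syn2 and -0.0965 with Syn1. Stx1a had 0.743 with Syt1, and within the PBS mice it was closer to Syt1 (0.899), Cplx1 (0.799) and Vamp2 (0.756) than to Snap25. All of these points share the library and its length slope.

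Genes outside the 8 whose log2 CPM was among the most like the mean of the 8 over 21 mice were Lingo1 (r = 0.984), which encodes an inhibitor of axon growth in neurons, Tbc1d30 (0.973), Chrm1 (0.967), which encodes the M1 muscarinic acetylcholine receptor, and Rab6b (0.965). All 4 also followed the length slope, with r from 0.840 for Rab6b to 0.923 for Chrm1. The least like were Araf (r = -0.966), which encodes a RAF kinase, and Lyrm5 (-0.956), both at -0.927 with the length slope. Araf lies on the opposite strand to Syn1 and shares 9 exonic bases with it. The gene most like Syn1 alone was Pacsin1, a neuronal protein of vesicle endocytosis, with an r of 0.997, and the gene most like Snap25 was Pak7, a neuronal kinase, with 0.932. The other closest partners were Pkm for Syp (0.962), Olfm2 for Syt1 (0.962), Rasal1 for Syn2 (0.921), Dym for Vamp2 (0.967), Kcnh7 for Stx1a (0.938) and Brsk2 for Cplx1 (0.960). Each of these is the extreme of 10454 values.

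The wider release machinery was described with 6 lists of other presynaptic genes, of which 128 were tested, 41 called higher and 15 lower. This is 43.8% called, against 31.6% of all genes. Of the vesicle membrane and vesicle-associated proteins, 14 of 31 were called higher and none lower, and their median log2 fold change was 0.28. Their most abundant members were Syt11 (0.29, SE 0.093), Rab3c (0.23, SE 0.081) and Rab3a (0.18, SE 0.067), a vesicle GTPase that fell just short of the threshold. Other SNARE proteins had 8 of 16 called lower, none higher, and a median of -0.18. Among them Vti1b, a SNARE of endosomes, fell by 0.48 (SE 0.17) on the log2 scale, while Snap47 was at 0.14 (SE 0.068). The 8 lower ones were Vamp8, Vti1b, Vamp3, Stx7, Stx4a, Vamp4, Snap23 and Stx3, named after their values were seen. With the library name form as a covariate 1 of 16 SNARE proteins was called lower, where 12.3% of all genes were called, and with the length and GC trend removed 3 were lower and 1 higher, where 16% were.

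Of the SNARE regulators 5 of 19 were called higher and 3 lower, with a median of 0.06. The share over all genes, here and for the lists below, was 15.5% called higher and 16.1% lower. Nsf, the ATPase that takes SNARE complexes apart, rose by 0.48 (SE 0.12), whereas Cplx2, the paralogue of Cplx1, was at 0.00 (SE 0.086). Of the subunits of the proton pump that fills vesicles, 2 of 17 were called in each direction, with a median of -0.05, and the most abundant, Atp6v0c, was at 0.25 (SE 0.099, edgeR adjusted p = 0.0573), Atp6v1b2 at 0.13 (SE 0.078) and Atp6v1a at -0.05 (SE 0.069). Genes of vesicle endocytosis and recycling had 14 of 29 called higher and 2 lower, with a median of 0.21. There Dnm1, the dynamin of synapses, rose by 0.79 (SE 0.24) and the clathrin heavy chain gene Cltc by 0.23 (SE 0.078), and the chaperone gene Hspa8 was at 0.09 (SE 0.088).

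The active zone scaffolds, long genes that organise the release site, had 6 of 16 called higher and none lower. Their median log2 fold change, 0.31, was close to that of the 8 genes, although their longest transcripts had a median of 6735.5 bases against 3052. Pclo (0.56, SE 0.14) and Unc13a (0.65, SE 0.23) rose, and Rims3 was at 0.27 (SE 0.17, edgeR adjusted p = 0.205). With the length and GC trend removed the scaffolds moved to a median of 0.08 with 2 called higher and 1 lower, and the 8 genes to 0.24 with 4 called higher. In that fit 16% of all genes were called in either direction. The difference between the lists was not tested. In the 15 mice of the SAMP8 name form, 0 of the 128 genes were called by edgeR, as were 0 of all genes (5797 at an unadjusted p under 0.05).

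**Figure D5:**
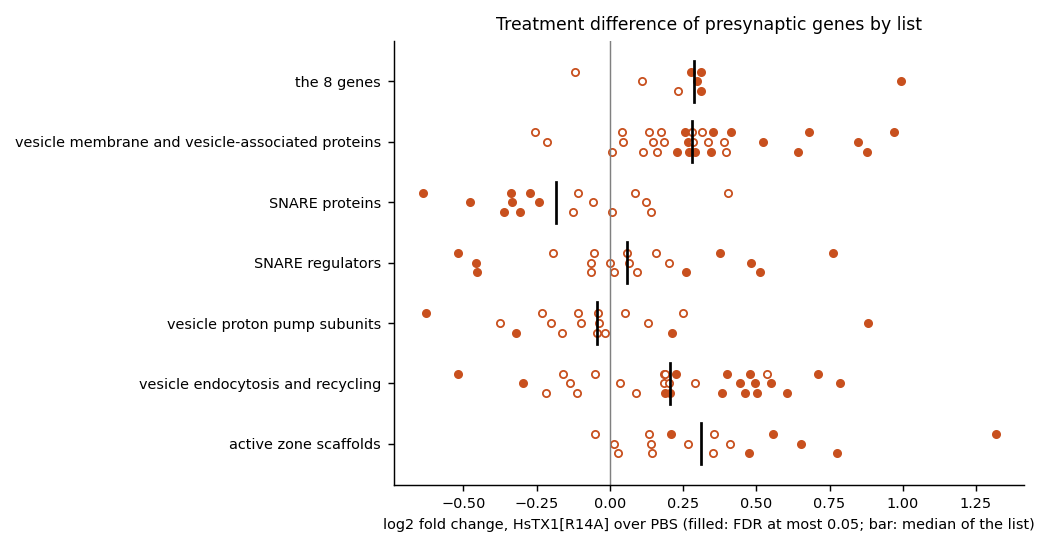
Each point is 1 gene placed by its log2 fold change, treated over PBS (horizontal axis), in rows for the 8 genes and 6 wider presynaptic lists, filled where the FDR is at most 0.05, with a bar at the list's median. The medians are 0.29 for the 8 genes, 0.28 for vesicle proteins and 0.31 for scaffolds, and -0.18 for other SNARE proteins.

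Markers of the cell types in the tissue were detected throughout, with all 12 markers of neurons outside the presynapse above 0 in every mouse. Their summed CPM ran from 4503 through a median of 4994 to 5698 in PBS mice and from 4897 through 5336 to 6293 in HsTX1[R14A] mice, and 2 of 12 were called, both higher. Of all genes 15.5% were called higher and 16.1% lower. Of the markers of oligodendrocytes, the myelinating cells, 4 of 8 were called lower and none higher. Their summed CPM ran from 4396 through 5162 to 6728 in PBS mice and from 3315 through 4416 to 4907 in HsTX1[R14A] mice. Of the 8 astrocyte markers 4 were called lower, with sums of 3331 to 4986 CPM in PBS mice and 3339 to 5038 in HsTX1[R14A] mice, and of the 8 microglia markers 3, with sums of 365 to 523 and 309 to 458. Of 7 endothelial markers 1 was called higher (69.8 to 129.7 and 84.2 to 146 CPM). Sums of 6 choroid plexus markers varied widely within both groups, from 65.0 to 1113 CPM in PBS mice and from 54.9 to 807 in HsTX1[R14A] mice. No defining marker of neurons, astrocytes, oligodendrocytes or microglia was at 0 in any mouse. The part of these markers in the differences of the 8 genes was not tested.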

How the data were processed

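RNA from whole brains of 21 SAMP8 mice was sequenced with 1 library per mouse. The authors aligned reads to GRCm38 with STAR and quantified genes with Salmon in the nf-core/rnaseq pipeline, and deposited estimated counts per gene, not normalized. Because 90.5% of these values lay within 0.01 of an integer and the others did not, they were rounded. The annotation release, the filter that left 16318 genes and the use of strand are not given in the sources used here. The labels and the study's methods name different library kits. The table also holds the authors' fold changes, p-values and FDR, and 53 other per-sample columns (37 of CPM and 16 of counts), none of which were used. Groups, sex and mouse numbers came from the labels, and mice are separate animals. The 48 pairs of mice within a group differed by a mean chi-square per gene of 7.58 or more over genes with at least 20 counts, so each library was counted as 1 sample.

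Genes passing filterByExpr by treatment and sex (16303) were tested with edgeR 4.0.16 (glmQLFit, glmQLFTest, TMM scaling) under R 4.3.3. The model held treatment and sex, and p-values were adjusted by Benjamini-Hochberg over all genes tested, at an FDR of 0.05. For log2 CPM a prior count of 2 was added. Transcript lengths and GC content were those of the longest transcript in GENCODE M21, found for 16224 tested genes. Correlations are descriptions and carry no p. The procedure was tested on simulated counts. These were drawn independently for each gene, without a library trend in length or GC content. The test therefore does not bear on calls made where such a trend is present. Alternatives were limma 3.58.1 with voom, DESeq2 1.42.0, RLE scaling, other filters, other covariates (1 surrogate variable from sva 3.50.0 among them), subtraction of a loess curve per library (span 0.5) on length and GC content, subsets of mice and each mouse left out. The coding-transcript lengths and the omission of both PBS mice with the lowest length slopes were chosen after seeing the data.

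The genes named are the 8 members, the 3 most abundant genes of each wider presynaptic list, the 5 genes most and the 2 least correlated with the mean of the members, and the gene most correlated with each member, the correlated genes being limited to a mean log2 CPM of 3 or higher. Some genes that this rule names are not reported here. The members and lists were chosen with earlier results of these data known.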

Additional observations from a re-analysis of the deposited data

Results flagged for a closer look

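Each of the 8 genes and the length slope was examined for outlying mice in the 3 groups of 6 mice, 27 groups of values in all, in each of which chance alone exceeds the limit about 1 time in 20. A mouse stood apart from the others of its group in 2 of them. Syn2 in PBS male 90 was at 253 CPM, below the other 5 PBS males. Vamp2 in HsTX1[R14A] male 81 was at 1103 CPM, above the other 5 treated males, and the same mouse had the highest treated value of 7 of the 8 genes. PBS male 90 had the second lowest length slope of the 21 libraries (-0.34), and HsTX1[R14A] male 81 had a slope of 0.20. No treatment by sex difference among the 8 genes was called.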

How the results depend on the processing

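With limma/voom, DESeq2, RLE scaling, no filter or at least 10 counts in every mouse, 5 members were called, as in the fit reported, and with the length and GC trend removed 4 were. The count of members called fell to 3 with the trend removed on coding lengths, to 2 without the sex term, with the name form, with 1 surrogate variable or without both PBS mice of lowest slope, and to 0 with the length slope, in 15 or 6 mice of 1 name form, in females and in males. With 1 mouse left out it ranged from 1 to 5. Of all genes, 5144 were called in the fit reported, 2984 without the sex term, 1999 with the name form, 2268 with the surrogate variable, 2595 and 2506 with the trend removed on longest and on coding transcripts, 2887 without both PBS mice, 0 with the length slope (1865 at an unadjusted p under 0.05), 0 in 15 mice (5797) and in 6 mice (532), 0 in females (3312) and in males (4440), and from 2289 (without PBS male 90) to 6614 (without HsTX1[R14A] male 93) with 1 mouse left out. Of the 128 genes of the wider lists, 56 were called in the fit reported, 29 with the name form and 0 in 15 mice. The treatment difference changed sign with the length slope in Syn1 (-0.0623), Cplx1 (-0.0907) and Stx1a (-0.00511), in the 6 SAMP mice in Syp (-0.00904) and Snap25 (0.0735), with the trend removed in Snap25 (6.00e-05, and 0.217 on coding lengths), and in females in Stx1a (-0.0318). None of these values passed the threshold, and the cause was not tested.

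Sex differences, none called in any fit, changed sign with the trend removed in Syt1 (-0.0167) and Cplx1 (-0.0252), and in limma/voom in Cplx1 (-0.00463). The interaction changed sign with the trend removed in Syt1 (-0.0165) and in limma/voom in Syn1 (0.17). With 1 mouse left out, the sex difference ranged from -0.0375 to 0.0623 in Syt1, -0.0163 to 0.0768 in Vamp2 and -0.0391 to 0.082 in Cplx1, and the interaction from -0.0866 to 0.117 in Syt1 and -0.436 to 0.106 in Syn1. No mouse number is shared between groups. The study assigned treatment at random within each cage, but the sample labels used here give no cage, so no analysis by cage could be made. Library length slope, GC slope, name form and treatment overlap in these 21 mice, with 3 treated females, so their parts cannot be told apart. The smallest count of a member in any mouse was 643.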
